A study of Mus musculus with 6 samples.

Results

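Immune checkpoints are pairs of receptors and ligands that restrain lymphocytes, and 10 of their genes were followed here in mouse colon tumor tissue: the receptors Pdcd1 (PD-1), Ctla4, Lag3, Havcr2 (TIM-3), Tigit and Btla, the PD-1 ligands Cd274 (PD-L1) and Pdcd1lg2 (PD-L2), the B7 family protein Cd276 (B7-H3), and the enzyme Ido1. The members were all gene probes of the array whose gene name was one of these 10 symbols, which gave 12 of the 56605 gene probes and 10 of the 37325 genes. Lag3 and Btla had 2 probes each and the other genes 1 each. A probe bright enough to be tested was found for 7 of them, Pdcd1, Cd274, Pdcd1lg2, Havcr2, Ido1, Cd276 and Btla, among 19090 genes tested over the whole array.

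Colitis-associated colon cancer (CAC) had been induced in all mice, male C57BL/6 bought at 6 to 8 weeks of age, with the carcinogen azoxymethane (AOM, 10 μg/g, intraperitoneal) and, 7 days later, 2% dextran sodium sulfate (DSS), which inflames the colon, in the drinking water for 5 days. The animals of the RG@M-γ-CD group (n = 3) received by mouth the kinase inhibitor regorafenib (RG) held in mannose-modified γ-cyclodextrin (30 μg/g as complex, which carries 10 μg/g of RG), and the PBS group (n = 3) received PBS. Treatment lasted 21 days and was followed by 14 days of observation, and each mouse gave 1 one-color array of RNA from colon tissue that carried tumors. The tissue is a mixture of tumor, mucosa, muscle and immune cells, so that in every value below fewer cells of a type and less RNA per cell cannot be told apart. Checked against markers of the labelled tissue, all 16 epithelial and all 13 stromal genes of the lists used here were bright enough to be tested.

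The share of probes clearly brighter than background ran from 49.6% to 55.2% per array, and all arrays lay on 1 slide scanned once, with the RG@M-γ-CD arrays and PBS replicate 1 in 1 row of the slide and PBS replicates 2 and 3 in the other, so that row and group cannot be fully told apart. The array of RG@M-γ-CD replicate 1 stood apart from its group. Over all tested genes its levels correlated with those of PBS replicates 2 and 3 at r = 0.985 and 0.987, against 0.941 and 0.973 with RG@M-γ-CD replicates 2 and 3. A clustering of these arrays in the paper's supplementary material does not follow the labels either. Its branch A holds RG@M-γ-CD replicate 1 with PBS replicates 2 and 3, and its branch B holds RG@M-γ-CD replicates 2 and 3 with PBS replicate 1. Groups were taken from the labels, and where leaving out this array moved the value of a member by over 1.5 times, the value without it is given too.

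PD-1 sits on activated T cells and, when bound by PD-L1 or PD-L2, damps signals from the T cell receptor. PD-L1 is made by tumor, epithelial and myeloid cells and is induced by interferon-γ, whereas PD-L2 is mostly a product of dendritic cells and macrophages. CTLA-4 competes with CD28 for CD80 and CD86, LAG-3 binds MHC class II, TIGIT binds PVR and nectins, BTLA binds TNFRSF14, and TIM-3 is carried by exhausted T cells and by macrophages and dendritic cells. IDO1 degrades tryptophan along the kynurenine route, which starves and restrains T cells.

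Several of these genes lie beside their relatives in the mouse genome. In the RefSeq order of genes, Cd274 and Pdcd1lg2 are direct neighbors on chromosome 19, Ctla4 lies between Cd28 and Icos on chromosome 1, Lag3 is next to Cd4 on chromosome 6, Ido1 is next to Ido2 on chromosome 8, and Btla is next to Cd200 on chromosome 16. The promoters of the neighboring PD-1 ligands are shown because one of them is a textbook interferon-γ target and both ligands are measured on these arrays. Each line gives the 250 bases before the start of the gene (RefSeq, GRCm38.p6, plus strand), at chr19:29367188-29367437 for Cd274 and chr19:29410669-29410918 for Pdcd1lg2. Capitals would mark the core of an interferon-stimulated response element (ISRE, GAAANNGAAA) on either strand.
Cd274: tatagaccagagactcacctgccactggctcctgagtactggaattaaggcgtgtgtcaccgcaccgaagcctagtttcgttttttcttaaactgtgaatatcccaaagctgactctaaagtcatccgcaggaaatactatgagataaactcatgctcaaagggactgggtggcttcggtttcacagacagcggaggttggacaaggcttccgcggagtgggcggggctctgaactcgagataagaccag
Pdcd1lg2: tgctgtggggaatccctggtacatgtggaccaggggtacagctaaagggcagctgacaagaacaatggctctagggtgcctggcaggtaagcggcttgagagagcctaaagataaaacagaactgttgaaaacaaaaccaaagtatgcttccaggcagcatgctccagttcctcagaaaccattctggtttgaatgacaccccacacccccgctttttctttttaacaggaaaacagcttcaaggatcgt

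Neither window holds these letters, and nor do the windows of the other 6 members with an entry in the promoter table (8 of 10 matched). Of 32851 mouse promoters of the same length, 2.98% hold them. The absence of letters in a window of this length says nothing about the factors that bind elsewhere.

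Levels are given throughout as log2 of the spot intensity after subtraction of the array's 75th percentile, so that 0 is the level that 3 in 4 gene probes do not exceed, and levels of different probes are not set against each other. A change is the RG@M-γ-CD mean minus the PBS mean on this scale, from the limma fit, with Benjamini-Hochberg adjustment over all 19090 genes. None of the 7 tested members passed an adjusted p of 0.05, as was the case for the whole array (0% of genes called, with a smallest adjusted p of 0.818). Pdcd1lg2 had an unadjusted p below 0.05, where 2.19% of all genes had one, and 1.33% had one with a lower level in RG@M-γ-CD. It was also the only tested member whose groups did not overlap, in comparison with 4.57% of all genes. All 7 tested members had a lower mean in RG@M-γ-CD, with a median change of -0.67, next to 52.8% of all genes and a median of -0.01. Pdcd1 and Pdcd1lg2 were tested only because their probes were well above background on all PBS arrays, which favors lower values in RG@M-γ-CD, so the count over 7 genes is a description. Among the 5 members well above background on all 6 arrays, all 5 changes were negative as well, and none of their intervals excluded 0. The 5 genes were read on the same arrays, so their signs are not 5 separate observations. Without PBS replicate 1 the changes of Cd274 (0.04) and Btla (0.16) were positive.

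**Figure D1:**
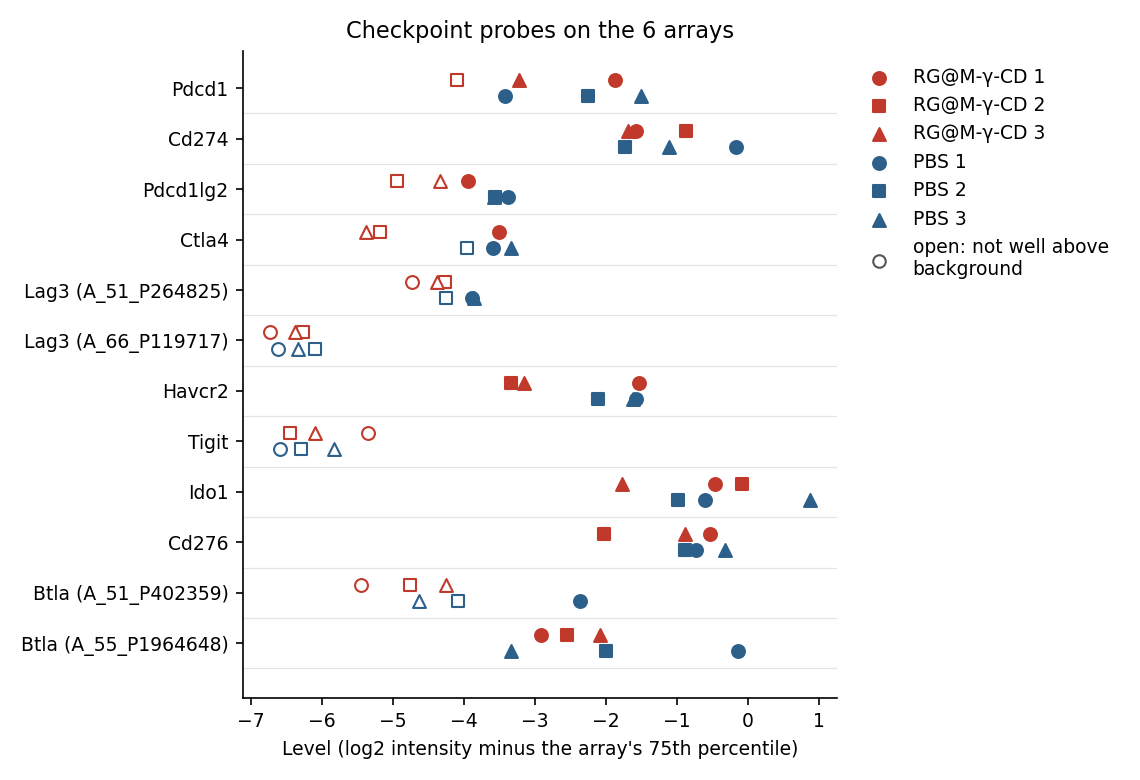
Level of each of the 12 checkpoint probes (horizontal axis, log2 intensity minus the array's 75th percentile) on the 3 RG@M-γ-CD arrays (red) and the 3 PBS arrays (blue), with a marker shape for each replicate and open markers where the probe was not well above background. Pdcd1lg2 and the brighter Lag3 probe are the genes whose red markers all lie left of the blue ones, while RG@M-γ-CD replicate 1 (red circle) sits with the PBS arrays for Pdcd1, Havcr2 and Ctla4.

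PD-L2 was the tested member whose labelled groups did not overlap, on a probe that entered the test through the PBS arrays alone. The Pdcd1lg2 probe (A_55_P2187141, mm9 chr19:29545473-29545532) read -3.95, -4.95 and -4.33 in RG@M-γ-CD replicates 1 to 3, and -3.38, -3.56 and -3.57 in the PBS replicates. All RG@M-γ-CD arrays were below all PBS arrays, and the PBS values lay close together. The RG@M-γ-CD mean was -4.41 ± 0.51 and the PBS mean -3.50 ± 0.11 (SD, n = 3), which is a change of -0.90 (SE 0.27, 95% interval -1.56 to -0.25). The adjusted p by limma was 1. The signal was dim, being well above background on all 3 PBS arrays but only 1 RG@M-γ-CD array. With RG@M-γ-CD replicates 2 and 3 raised to the lowest level well above background on each, the difference was -0.61. With normexp background correction, which compresses dim probes, the change was -0.34.

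PD-L1 did not separate the groups. Its probe (A_51_P248666, mm9 chr19:29462363-29462422) was well above background on all 6 arrays and read -1.57, -0.87 and -1.69 on the RG@M-γ-CD arrays and -0.17, -1.73 and -1.10 in PBS. The highest and the lowest of the 6 Cd274 levels both came from PBS arrays. The group means of -1.38 ± 0.44 and -0.999 ± 0.78 (SD, n = 3) differed by -0.38 (SE 0.43, 95% interval -1.42 to 0.66, adjusted p = 1 by limma). This difference rested on PBS replicate 1, without which the change was 0.04. PBS replicate 1 was the highest array for both neighboring ligands, and the lowest was PBS replicate 2 for Cd274 and RG@M-γ-CD replicate 2 for Pdcd1lg2. The difference between their changes was not tested.

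The receptor PD-1 varied more within each group than between them. Pdcd1 (A_51_P285736, mm9 chr1:95935064-95935123) read -1.87, -4.10 and -3.22 on the RG@M-γ-CD arrays and -3.42, -2.25 and -1.51 in PBS, a range of 2.59 over the arrays. RG@M-γ-CD replicate 1 was the second highest array and PBS replicate 1 the second lowest. The means were -3.06 ± 1.12 and -2.39 ± 0.97 (SD, n = 3), and the change was -0.67 (SE 0.69, 95% interval -2.32 to 0.98, adjusted p = 1 by limma). The change was -1.27 when RG@M-γ-CD replicate 1 was left out. It was -0.15 when RG@M-γ-CD replicate 2, where the probe was not well above background, was left out.

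TIM-3 showed the largest change in size among the tested members together with PD-L2, and its value turned on 1 array. Havcr2 (A_51_P109508, mm9 chr11:46294650-46294709) read -1.53 in RG@M-γ-CD replicate 1 against -3.33 and -3.15 in replicates 2 and 3, and -1.57, -2.11 and -1.62 in PBS. The first of these was the highest Havcr2 level of all 6 arrays, and the next 2 were the lowest. RG@M-γ-CD replicates 2 and 3 also had the lowest summed level of the macrophage and monocyte markers (149 and 183, against 268 to 340 on the other arrays), and the part of this in the Havcr2 value was not tested. The means of -2.67 ± 0.99 and -1.76 ± 0.30 (SD, n = 3) gave a change of -0.91 (SE 0.49, 95% interval -2.08 to 0.27, adjusted p = 1 by limma), or a 1.88-fold lower intensity. Without RG@M-γ-CD replicate 1 the change was -1.48 (SE 0.23), the groups did not overlap, and the adjusted p by limma was 0.0569. That array was singled out by its expression values and held the highest Havcr2 level. Its removal therefore favors a separation of the groups, and the values of this fit are a description and no test of the treatment. In that fit 1.04% of 19466 genes passed the adjusted threshold and 12.5% an unadjusted p of 0.05, among them Pdcd1lg2 (-1.14, SE 0.23, adjusted p by limma 0.105) and Havcr2 but no other member. Pdcd1lg2, Havcr2 and Cd276 were the 3 members whose groups did not overlap there, where 25.9% of all genes did not.

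**Figure D2:**
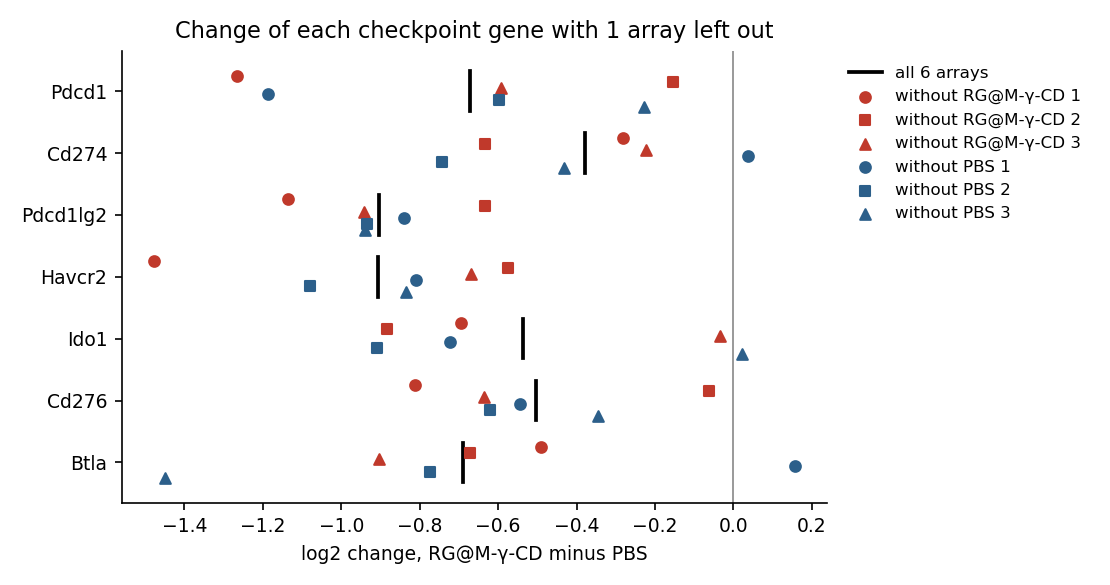
Change of each tested checkpoint gene (horizontal axis, log2, RG@M-γ-CD minus PBS) with all 6 arrays (black bar) and after removal of any 1 array (colored markers). Pdcd1lg2 stays between -1.14 and -0.63 and Havcr2 between -1.48 and -0.58, while Cd274, Ido1 and Btla reach values just above 0.

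BTLA is carried by B cells and T cells and is engaged by TNFRSF14. Its brighter probe (A_55_P1964648, mm9 chr16:45252905-45252964) read -2.91, -2.54 and -2.08 on the RG@M-γ-CD arrays and -0.13, -1.99 and -3.34 in PBS. PBS thus held the highest and the lowest Btla level, with PBS replicate 1 far above the other arrays. The change was -0.69 (SE 0.77, 95% interval -2.54 to 1.16, adjusted p = 1 by limma), and it was 0.16 without PBS replicate 1. The dimmer probe (A_51_P402359, mm9 chr16:45252118-45252177) was well above background only in PBS replicate 1. From that probe the PBS mean was 1.56-fold higher with each RG@M-γ-CD array counted at no less than its lowest level well above background. PBS replicates 2 and 3 entered as read, below their own such levels. The value therefore rests on PBS replicate 1 and is not a lower bound.

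The other lymphocyte receptors were at or below the limit of the array and were not tested. Ctla4 (A_55_P2147712, mm9 chr1:60971801-60971860) was well above background on 2 PBS arrays and 1 RG@M-γ-CD array. Its levels were -3.51, -5.18 and -5.38 on the RG@M-γ-CD arrays and -3.59, -3.95 and -3.34 in PBS, so that RG@M-γ-CD replicate 1 again lay with the PBS arrays. The brighter Lag3 probe (A_51_P264825, mm9 chr6:124854570-124854866, a span longer than the probe) was well above background on 2 PBS arrays and on none of the RG@M-γ-CD arrays. It read -4.73, -4.27 and -4.38 on the RG@M-γ-CD arrays and -3.89, -4.25 and -3.86 in PBS. The PBS mean was 1.26-fold higher with each RG@M-γ-CD array counted at no less than its lowest level well above background. This is not a lower bound, because PBS replicate 2 entered as read, below its own such level. The second Lag3 probe (A_66_P119717, mm9 chr6:124859333-124859392) and the Tigit probe (A_55_P2026903, mm9 chr16:43649114-43649173) were not well above background on any array. For the second Lag3 probe and Tigit no difference between the groups was measurable at this signal, which is not evidence that the genes were silent.

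Ido1 and Cd276 act outside the lymphocyte receptors. Ido1 (A_51_P307150, mm9 chr8:25694798-25694857) read -0.46, -0.08 and -1.77 on the RG@M-γ-CD arrays and -0.60, -0.98 and 0.88 in PBS. The groups interleaved, with 1 high PBS array and 1 low RG@M-γ-CD array at the ends. The means of -0.77 ± 0.89 and -0.23 ± 0.98 (SD, n = 3) differed by -0.54 (SE 0.62, 95% interval -2.02 to 0.95, adjusted p = 1 by limma), and by 0.02 without PBS replicate 3. B7-H3, an orphan B7 molecule found on many tumors and on stroma, was measured by the Cd276 probe (A_55_P2716641, mm9 chr9:58372143-58372202) at -0.53, -2.03 and -0.88 on the RG@M-γ-CD arrays and at -0.72, -0.88 and -0.32 in PBS. Only RG@M-γ-CD replicate 2 lay clearly away from the others. The change in Cd276 was -0.50 (SE 0.40, 95% interval -1.47 to 0.46, adjusted p = 1 by limma), -0.81 without RG@M-γ-CD replicate 1 and -0.06 without RG@M-γ-CD replicate 2.

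**Figure D3:**
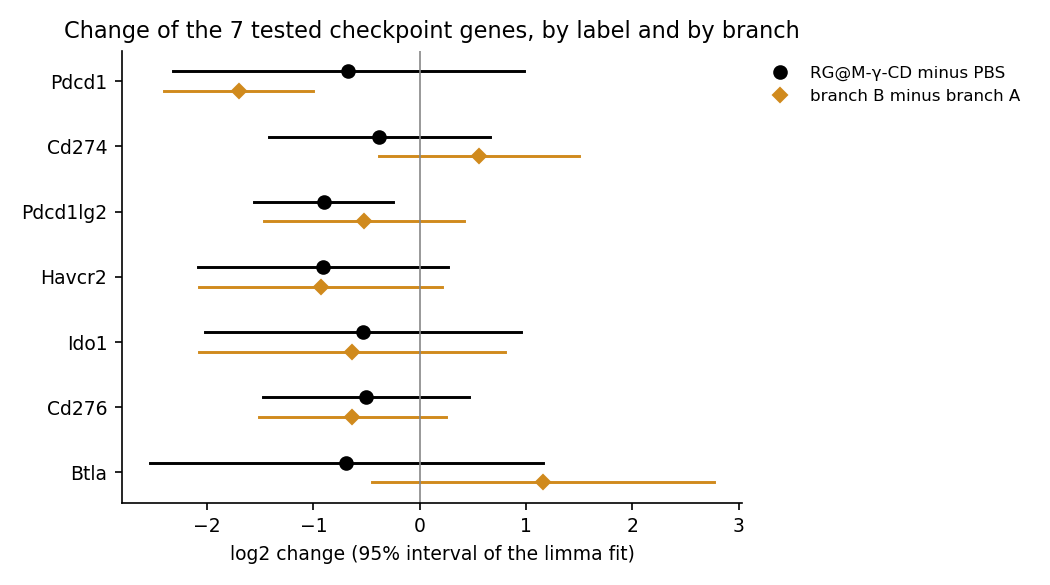
Change of the 7 tested checkpoint genes with its 95% interval from the limma fit (horizontal axis, log2), for RG@M-γ-CD minus PBS (black circles) and for branch B minus branch A of the clustering (orange diamonds). By label only the interval of Pdcd1lg2 (-1.56 to -0.25) excludes 0, and by branch only that of Pdcd1 (-2.41 to -1.0).

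Between the branches of the clustering the order of the members was different. The branches were drawn from the expression values of these arrays, so the following values are a description and no test of a treatment. Pdcd1 was at -3.58 ± 0.46 in branch B and -1.88 ± 0.37 in branch A (SD, n = 3), a difference of -1.70 (SE 0.29) with no overlap, whereas Pdcd1lg2 differed by -0.52 with overlap. Havcr2 (-0.93), Ido1 (-0.64) and Cd276 (-0.63) were lower in branch B, and Cd274 (0.56) and Btla (1.16) were higher. No member passed the adjusted threshold by branch, where 0.0259% of 19298 genes did. Pdcd1 was the 1 member at an unadjusted p below 0.05 and the 1 member without overlap, where 16.5% and 25.5% of all genes were.

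The partners of these proteins had a median change of -0.15. Of 34 ligands, receptors and related checkpoint genes, 24 were tested, 17 were lower with RG@M-γ-CD and none passed the adjusted threshold (limma). Icos, the costimulatory receptor encoded beside Ctla4, read -1.94, -2.82 and -3.06 on the RG@M-γ-CD arrays and -1.66, -1.76 and -1.53 in PBS. Its groups did not overlap, and the change was -0.95 (SE 0.30), with an unadjusted p below 0.05. Cd86, the ligand of CD28 and CTLA-4, stood at -0.69 (SE 0.31), and Cd48, the ligand of CD244, by -0.43 (SE 0.28), with overlap in both. Cd28, on the other side of Ctla4, stood at -0.14 (SE 0.23), Cd4, beside Lag3, at -0.41 (SE 0.40) and Cd200, beside Btla, at 0.42 (SE 0.31), so neighboring genes did not share 1 value. Among 20 enzymes, receptors and transporters of tryptophan and adenosine, 13 were tested, 7 were lower and 1, Kmo, which hydroxylates kynurenine, had an unadjusted p below 0.05 by limma (change -0.87, SE 0.33). Il4i1, an amino acid oxidase gene, stood at -1.04 (SE 0.49) and the amino acid transporter gene Slc7a5 by 0.69 (SE 0.42), both with overlapping groups.

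Interferon-γ, which induces PD-L1 and IDO1, was represented by 30 genes, all tested. Of these 29 were lower in RG@M-γ-CD, with a median of -0.40, none passed the adjusted threshold and 3 had an unadjusted p below 0.05 (limma). These were the GTPase genes Ifi47 (-0.95, SE 0.28) and Irgm1 (-0.55, SE 0.23), and Socs1, the inhibitor of JAK signaling (-0.83, SE 0.29). Ifng itself was the exception, at 0.58 (SE 0.59). The median was -0.21 without PBS replicate 1 and -0.60 without PBS replicate 2. By branch the median of the list was 0.21 and 7 of 30 genes were lower, so that the direction of the list, as that of Cd274, depended on how the arrays were grouped. The exhaustion and regulatory T cell list held 20 tested genes of 24, of which 13 were lower, with a median of -0.26 and no gene at an unadjusted p below 0.05. Its 3 smallest p-values belonged to the transcription factor gene Batf (-0.63, SE 0.29), Ebi3, a cytokine subunit gene (-0.54, SE 0.26), and Il2ra, the IL-2 receptor chain of regulatory T cells (-1.19, SE 0.58).

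**Figure D4:**
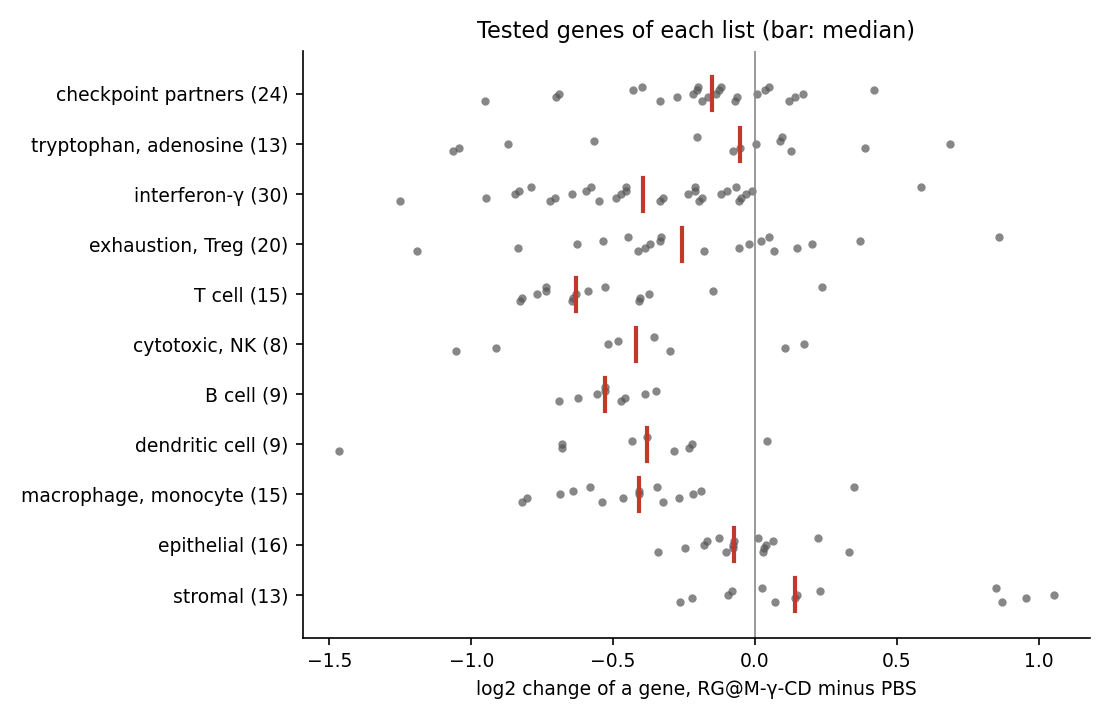
Change of every tested gene of the 11 lists (horizontal axis, log2, RG@M-γ-CD minus PBS), with the number of tested genes beside each list name and the list median as a red bar. The medians run from -0.63 for the T cell markers to 0.14 for the stromal markers, and no gene passed the adjusted threshold.

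Markers of the lymphocytes that carry checkpoint receptors mostly had lower means with RG@M-γ-CD, and none passed the adjusted threshold (limma). Of 17 T cell markers 15 were tested and 14 were lower in RG@M-γ-CD (median -0.63), and 5 had an unadjusted p below 0.05, among them Lat, Cd6, Cd3g and Cd5. The signaling adaptor gene Lat stood at -0.74 (SE 0.26), the receptor gene Cd6 by -0.83 (SE 0.31) and Cd3g, a chain of the T cell receptor complex, by -0.64 (SE 0.25). Cd8a and Cd27 were not tested. The level of this list summed over its genes on the linear scale was 14.7 to 20.7 with RG@M-γ-CD and 16.9 to 20.4 in PBS. Of 12 cytotoxic and NK cell markers 8 were tested, 6 were lower (median -0.42), and Cst7 (-1.05, SE 0.25) and the chemokine gene Ccl5 (-0.91, SE 0.34) had an unadjusted p below 0.05, followed by Nkg7 (-0.48, SE 0.24). The summed level of the cytotoxic list was 2.19 to 3.27 with RG@M-γ-CD and 3.30 to 4.94 in PBS, and the NK receptor genes Ncr1 and Klrb1c were not tested. Most of each cytotoxic sum came from Ccl5 and Gzma (-0.30, SE 0.52).

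Most myeloid and B cell markers had lower means as well, and again none passed the adjusted threshold (limma). Of 14 dendritic cell markers 9 were tested and 8 were lower (median -0.38, summed level 29.3 to 37.2 with RG@M-γ-CD and 33.8 to 43.9 in PBS). Among them were Ccr7, the homing receptor of mature dendritic cells and naive T cells (-1.47, SE 0.36), the cytokine receptor gene Flt3 (-0.68, SE 0.24) and the integrin gene Itgax (-0.68, SE 0.32). Most of each dendritic sum came from 1 bright gene, Siglech (-0.22, SE 0.18). Of 16 macrophage and monocyte markers 15 were tested and 14 were lower (median -0.41), with summed levels of 303, 149 and 183 with RG@M-γ-CD and 268, 326 and 340 in PBS. Most of each macrophage sum came from Ly6c2 and Lyz2. Without RG@M-γ-CD replicate 1 the macrophage median was -0.73. The smallest p-values of the macrophage list belonged to the LPS co-receptor gene Cd14 (-0.41, SE 0.17), the monocyte gene Ly6c2 (-0.58, SE 0.28) and the lysozyme gene Lyz2 (-0.82, SE 0.41). All 9 tested of 12 B cell markers were lower (median -0.53), with Cr2 at -0.69 (SE 0.88), Cd79b at -0.63 (SE 0.84) and Fcrla at -0.56 (SE 0.81), and with summed levels of 3.46, 4.52 and 7.44 with RG@M-γ-CD and 22.3, 9.19 and 1.85 in PBS. PBS held both extremes of the B cell level, as it did for Btla. The B cell median rested on single arrays, being 0.38 without PBS replicate 1, -1.53 without PBS replicate 3 and -0.24 without RG@M-γ-CD replicate 1. Cd79a, Blk and Pax5 were not tested.

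Epithelial and stromal lists lay around 0. Of 16 epithelial markers 9 were lower (median -0.07), with Krt18 at -0.25 (SE 0.19), Muc2 at -0.34 (SE 0.38) and Cdx1 at 0.22 (SE 0.29), and of 13 stromal markers 4 were lower (median 0.14). That median was 0.27 when RG@M-γ-CD replicate 1 was left out. The summed stromal level was 345 and 380 in RG@M-γ-CD replicates 2 and 3 and 170 to 217 on the other 4 arrays. These 2 were also the arrays with the lowest levels of Pdcd1lg2, Havcr2, Cd276 and Ctla4. Cdh5, of endothelium, stood at 0.23 (SE 0.18), the smooth muscle gene Myh11 at 1.05 (SE 0.85) and Lum, of fibroblasts, at 0.87 (SE 0.71). The part of these marker levels in the values of the checkpoint genes was not tested.

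Across the 6 arrays each checkpoint gene was set against the mean log2 level of the 11 lists, which gave 77 relations. The arrays share their treatment in groups of 3, and 6 arrays leave too few within a group, a branch or a slide row for a value there. Btla followed the B cell markers at r = 0.968 (exact permutation p = 0.00139, Benjamini-Hochberg adjusted 0.107) and rho = 1 (exact permutation p = 0.00278, adjusted 0.214), and at r = 0.990 without PBS replicates 1 and 3, the arrays farthest from the median of the list. Havcr2 followed the macrophage and monocyte markers at r = 0.974 (exact permutation p = 0.0125, adjusted 0.193) and rho = 0.886 (p = 0.0333, adjusted 0.321), and at r = 0.993 without RG@M-γ-CD replicates 2 and 3. The relation was not particular to that list, since Havcr2 stood at r = 0.944 with the exhaustion and regulatory T cell genes (exact permutation p = 0.0111, adjusted 0.193, rho = 0.886) and at r = -0.92 with the stromal markers (exact permutation p = 0.0181, adjusted 0.199, rho = -0.943), which were 0.864 and -0.469 without RG@M-γ-CD replicates 2 and 3. Cd274 followed the interferon-γ genes at r = 0.927 (exact permutation p = 0.0167, adjusted 0.199) and rho = 0.714 (p = 0.136, adjusted 0.655), and at r = 0.948 without PBS replicates 1 and 3. No relation passed the adjustment over 77.

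The remaining genes followed no single list as closely, or followed several. Pdcd1lg2 was nearest to the tryptophan and adenosine genes (r = 0.909, rho = 0.943, exact permutation p = 0.00972 and 0.0167, adjusted 0.193 and 0.321), and at r = 0.785 without PBS replicate 1 and RG@M-γ-CD replicate 2. It was nearly as close to the T cell markers (r = 0.906, rho = 0.943, exact permutation p = 0.00694 and 0.0167, adjusted 0.193 and 0.321), and at r = 0.544 without RG@M-γ-CD replicates 2 and 3. Cd276 was nearest to the macrophage list (r = 0.665, rho = 0.886, exact permutation p = 0.103 and 0.0333, adjusted 0.472 and 0.321), and at r = 0.759 without RG@M-γ-CD replicates 2 and 3. Pdcd1 was nearest to the partner list (r = 0.722, rho = 0.6, exact permutation p = 0.144 and 0.242, adjusted 0.506 and 0.740), a relation that rested on RG@M-γ-CD replicates 2 and 3, since r was 0.207 without them. Ido1 was nearest to the cytotoxic list (r = 0.649, rho = 0.371, exact permutation p = 0.186 and 0.497, adjusted 0.521 and 0.798), and at r = 0.739 without PBS replicates 1 and 3.

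**Figure D5:**
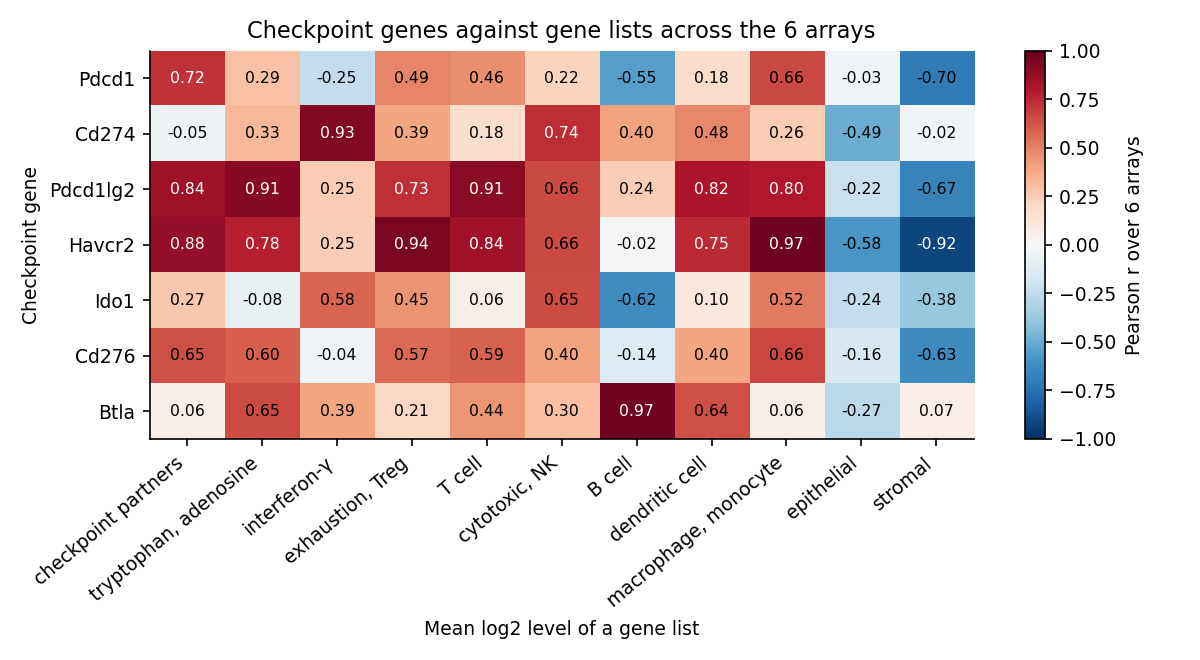
Pearson correlation over the 6 arrays between each tested checkpoint gene (rows) and the mean log2 level of each gene list (columns), colored from -1 in blue to 1 in red. Btla is highest with the B cell markers, Havcr2 with the macrophage and monocyte markers and Cd274 with the interferon-γ genes, and no value passed adjustment over the 77 relations.

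The tested genes most like each member over the 6 arrays were named from the 3919 genes with an SD of at least 0.5. Btla was closest to Pou2af1, a B cell transcription coactivator gene (r = 0.996), and Lta, lymphotoxin α (r = 0.986). Havcr2 was closest to the metalloreductase gene Steap4 (r = 0.998) and Sirpb1b, a myeloid receptor gene (r = 0.997), and Pdcd1lg2 to Hmox1, heme oxygenase (r = 0.990), and Pomc (r = 0.987). Cd276 was closest to the tight junction gene Cldn4 (r = 0.994) and Cenpm, a centromere gene (r = 0.993), Pdcd1 to LOC102632821 (r = 0.993) and Isx, an intestinal homeobox gene (r = 0.986), and Ido1 to the scavenger receptor gene Scara5 (r = 0.945) and Phf11a (r = 0.939). The closest genes to Cd274 were 2 noncoding transcripts that the array names by position (r = 0.992 and 0.985). Such values are the highest of many on 6 arrays and were not tested.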

How the data were processed

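Total RNA of colon tissue with tumors from 6 mice was labeled with Cy3 and hybridized to Agilent SurePrint G3 mouse arrays, and the authors deposited the output of Feature Extraction 10.7.1.1, with a background-corrected intensity per spot and no normalization between arrays. A table of log2 values per probe, also deposited by the authors, served as an alternative. Groups and replicate numbers came from the sample labels, and each array is a separate mouse.

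Reading and fitting were done in R 4.3.3 (data.table package, version 1.17.8). Control spots (3671 of 62976) and 790 outlier spots over the 6 arrays were left out, no spot was saturated, the log2 values of a probe's spots were averaged, and the array's 75th percentile was subtracted. A probe well above background (at least 0.5 of its spots) on all 3 arrays of a group was tested, and the brightest such probe stood for its gene. RefSeq accessions gave 32994 of 56605 probes (58.3%) their symbol, and the others kept the name in the files. Changes were fitted with limma 3.58.1 (lmFit, eBayes) with Benjamini-Hochberg adjustment at 0.05. The same fit was afterwards run on simulated data with planted changes larger than those of the members, so that run does not speak for changes of their size. Precision is limited by 3 arrays per group, where an exact permutation test cannot go below p = 0.1 (two-sided).

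The genes named are the 10 members, the 3 of each of the 11 lists with the smallest unadjusted p, and for each tested member the 2 most correlated genes with an SD of at least 0.5. The T cell gene Cd5, the neighboring genes Cd28, Cd4 and Cd200, Ifng, Siglech, Gzma, and markers not tested were named after their values were seen. Members and lists were chosen with earlier results of these data known. Probe positions are those of the scanner files (mm9), and promoters are those of RefSeq (GRCm38.p6). Exact permutation tests of correlations were two-sided over 720 orders.

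The alternatives were quantile normalization, normexp with an offset of 50, the deposited table, probes of any brightness, probes well above background on all 6 arrays only, averages over a gene's probes, outliers kept, a replicate block, the methods' t-test, the clustering's branches, and each array left out.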

Additional observations from a re-analysis of the deposited data

How the results depend on the processing

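No member passed the adjusted threshold under any of the 16 alternatives. The methods' t-test called 0 of all genes after adjustment and 381 at an unadjusted p below 0.05, against 0 and 419 by limma. It was run here on 1 probe per gene and without the 2-fold cutoff of the methods. These are therefore not counts by the paper's own criterion. Pdcd1, Pdcd1lg2, Havcr2 and Cd276 were lower in RG@M-γ-CD, or in branch B, under every alternative that tested them. Pdcd1lg2 lost its unadjusted p below 0.05 with quantile normalization (0.0524) and the deposited table (0.0524), which left 0 members there, and was not tested under the filter on all 6 arrays, which left 0 members there and 0 without overlap. Without a filter 2 members did not overlap, Pdcd1lg2 and Lag3, where 3.79% of all genes did not. The median change of the tested members was -0.34 with normexp. With 1 array left out, 0 members passed the adjusted threshold, 1 to 2 had an unadjusted p below 0.05, and 1 to 3 did not overlap. Lower means were seen for 5 to 9 members, of 7 tested in each fit but 9 without PBS replicate 2, and for 40.2% to 61.2% of all genes. The median of the members lay between -0.81 and -0.43. In those fits 1.25% to 12.5% of all genes had an unadjusted p below 0.05 and 7.52% to 25.9% did not overlap, with both highest shares without RG@M-γ-CD replicate 1. Without PBS replicate 2 the dim Ctla4 and Lag3 probes entered the test through the PBS arrays alone, which favors lower values in RG@M-γ-CD. Lag3 then stood at -0.58 (unadjusted p by limma 0.0414), which for that reason is only a description. Without PBS replicate 3 Btla did not overlap (-1.45).

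Directions turned for Cd274 and Btla by branch (0.558 and 1.16) and without PBS replicate 1, and for Ido1 without PBS replicate 3. With 1 array left out, the change of Cd274 ran from -0.743 to 0.0359, that of Btla from -1.45 to 0.156 and that of Ido1 from -0.909 to 0.0208. The cause was not tested. The B cell median was 1.31 by branch. The medians of the tryptophan and epithelial lists, near 0, took either sign with 1 array left out (-0.16 to 0.01 and -0.22 to 0.10).

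Replicate numbers are shared between the groups, and deviations of same-numbered arrays correlated at -0.25, -0.23 and 0.14. The labels do not say whether the numbers pair the mice, and so few arrays cannot decide it. With the replicate number as a block the median change of the tested members was -0.67, 0 passed the adjusted threshold, Pdcd1lg2 had an unadjusted p of 0.0161 by limma, and 464 genes lay below an unadjusted p of 0.05 instead of 419. Ctla4 and Tigit have no value in the main analysis because their probes did not reach 3 arrays of a group, and neither did those of Lag3. Levels near background, such as those of Pdcd1lg2, Ctla4 and Lag3, are the least certain.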
